A study of Homo sapiens with 9 samples.

Results

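The G1 cyclins and their kinases comprise 8 genes of the 60966 in the deposited tables: the D cyclins CCND1, CCND2 and CCND3, their kinases CDK4 and CDK6, the E cyclins CCNE1 and CCNE2, and their kinase CDK2. They were selected by gene name, and the transcript values of each were summed per gene. RNA was sequenced from H1299, an established cell line of human non-small cell lung cancer, 48 h after siRNA transfection. All 9 samples came from the same line, and there were 3 independent samples in each of 3 groups, which received a scrambled siRNA (Scramble) or one of a pair of siRNAs against FIBP (Si-FIBP#1 and Si-FIBP#2). The knockdown was transient, no group was left untransfected, and both FIBP siRNAs were compared with the same Scramble samples. The values are FPKM, the number of fragments relative to the length of the transcript and the size of the library.

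D cyclins rise when cells receive growth signals and activate CDK4 and CDK6, which start the phosphorylation of the retinoblastoma protein RB. RB then releases E2F transcription factors, whose targets include the E cyclins, and cyclin E with CDK2 completes RB phosphorylation and allows entry into S phase. INK4 proteins inhibit CDK4 and CDK6, whereas CIP/KIP proteins bind cyclin-CDK complexes and inhibit CDK2, and cyclin D1 is often overexpressed in lung cancer.

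Promoter sequences were found for 4 of the 8 genes (CCND3, CDK4, CDK6 and CCNE1, 7 windows in all) in the RefSeq table for GRCh38.p14. Shown are the 250 bases before the start of CDK4, the gene whose response differed between the siRNAs in the opposite direction to CCND1, and of CCNE1, the gene that rose the most. The CDK4 window lies on the minus strand at chr12:57752311-57752560, and its capitals mark the E-box CACGTG, the letters that MYC with its partner MAX is known to bind. The CCNE1 window lies on the plus strand at chr19:29811741-29811990, and its capitals mark the GC box GGGCGG on either strand, the letters that SP1 is known to bind. Both starts are those of RefSeq and lie inside the spans that GENCODE 29 gives for these genes, so that the CDK4 window and part of the CCNE1 window are within those spans.
CDK4: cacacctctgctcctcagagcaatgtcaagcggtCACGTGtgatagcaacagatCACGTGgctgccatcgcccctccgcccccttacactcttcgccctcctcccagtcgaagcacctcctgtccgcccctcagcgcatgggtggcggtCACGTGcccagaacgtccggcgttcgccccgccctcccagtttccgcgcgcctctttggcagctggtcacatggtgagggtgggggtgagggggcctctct
CCNE1: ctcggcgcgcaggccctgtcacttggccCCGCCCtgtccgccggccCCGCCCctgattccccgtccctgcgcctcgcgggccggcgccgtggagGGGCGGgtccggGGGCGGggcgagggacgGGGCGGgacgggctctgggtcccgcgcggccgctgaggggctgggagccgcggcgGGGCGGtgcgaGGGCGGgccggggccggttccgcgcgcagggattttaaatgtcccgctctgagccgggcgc
The CDK4 window held 3 E-boxes, with first bases at -216, -196 and -101 from the start. At least 1 E-box was found in 6.34% of the 35116 RefSeq promoter windows of the same length, and 3 or more in 0.0797%. The other 6 windows of these genes held none. The CCNE1 window held 7 GC boxes, and 42.6% of all windows held at least 1. CDK4 also had 3 GC boxes, none of which overlapped an E-box. The E2F letters TTTCCCGC, TTTGGCGC, TTTCGCGC and TTTGCCGC, searched on both strands, were in 2.79% of all windows and in none of the 7. These matches describe letters in the windows and are not sites of binding.

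In the knockdown itself, FIBP stood at 88.4, 79.5 and 77.7 FPKM in Scramble, at 7.49, 7.77 and 4.30 FPKM in Si-FIBP#1 and at 7.13, 5.92 and 8.21 FPKM in Si-FIBP#2, so that 7.96% and 8.66% of the Scramble mean remained. The sum includes 2 assembled transcripts without an Ensembl identifier, which gave 5.67% to 7.35% of it in Scramble and 43.5% to 57.2% in the depleted samples, and with the 13 annotated transcripts alone 4.35% and 4.78% remained. Fold changes below are on the log2(FPKM + 1) scale and were tested with limma across 14985 genes that reached 1 FPKM in 3 or more samples, with p-values adjusted by the Benjamini-Hochberg method. A gene passed at an adjusted p below 0.05, and a 2-fold limit was applied in addition where stated. Estimated library sizes were 20300000 to 24000000 fragments. Mitochondrial transcripts took 10.1% to 10.4% of all FPKM in Scramble, 14.2% to 14.6% in Si-FIBP#1 and 12.2% to 13.2% in Si-FIBP#2, and the part of this in the results was not tested. The median log2 fold change of all tested genes was 0.073 in Si-FIBP#1 and 0.11 in Si-FIBP#2. Scaling by the median ratio of each sample to the others brought these to 0.0051 and 0.0063. Replicate 2 of Si-FIBP#2 differed from the other two of its group for genes that include CCND1, CCNE1 and EGR1, and values without it are given with these genes. Of the H1299 markers, VIM, KRT8, KRT18 and CD44 were high, and the 5 markers summed to 4055 to 4291 FPKM in Scramble, 2778 to 3138 in Si-FIBP#1 and 2122 to 2885 in Si-FIBP#2. The haematopoietic marker CD3E was listed at 0 in all 9 samples and the endothelial marker CDH5 in all but replicate 3 of Si-FIBP#2 (0.04 FPKM), and the 3 fibroblast markers summed to 0.21 to 3.22 FPKM. Of the 4 haematopoietic markers only CD68, which encodes a lysosomal membrane protein, was above 1 FPKM, at 31.0 to 33.0 in Scramble, 37.6 to 40.3 in Si-FIBP#1 and 50.9 to 67.0 in Si-FIBP#2, with no overlap of the groups. The part of these marker changes in the results was not tested.

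CCND1, CCNE2, CDK2 and CDK6 fell and CCNE1 rose with both siRNAs. CCNE2 and CDK2 fell to about the same level with either siRNA, whereas CCND1 fell further with Si-FIBP#1 and CDK4 fell with Si-FIBP#2. With Si-FIBP#1, 5 of the 7 tested genes passed (1 higher, 4 lower), where 47.7% of all tested genes did (27.8% higher, 19.9% lower). With Si-FIBP#2, 7 of 7 passed (2 higher, 5 lower), against 48.8% of all tested genes (31.1% higher, 17.7% lower). The depleted and Scramble samples did not overlap for 5 of 7 in Si-FIBP#1, against 58.9% of all tested genes, and for 7 of 7 in Si-FIBP#2, against 57.3%. These shares of all genes are so high that passing or not overlapping alone does not set the G1 genes apart. With the 2-fold limit, 2 of 7 passed with Si-FIBP#1 (CCNE1 and CCNE2), against 5.66% of all tested genes, and 2 of 7 in Si-FIBP#2 (CCNE2 and CDK2), against 5.05%. Without replicate 3 of Si-FIBP#2 only CCNE2 passed it with Si-FIBP#2, CDK2 being at -0.997 on the log2 scale. With TPM or median ratio scaling CCND1 and CDK2 also passed the 2-fold limit with Si-FIBP#1, which made 4 of 7. The median size of the log2 change was 0.96 for the 7 genes and 0.29 for all tested genes with Si-FIBP#1, and 0.58 and 0.29 in Si-FIBP#2. The added 1 shrinks changes of low genes, and with 0.1 added instead more of all tested genes passed the 2-fold limit (counts below). Comparing the siRNAs with each other, 2 of 7 passed, CCND1 and CDK4, against 15.4% of all tested genes, and none of the 7 passed with the 2-fold limit, against 0.561%. The samples of the siRNAs did not overlap for 3 of 7, against 32.9% of all tested genes. With both siRNAs pooled against Scramble, 7 of 7 passed, against 53% of all tested genes.

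**Figure D1:**
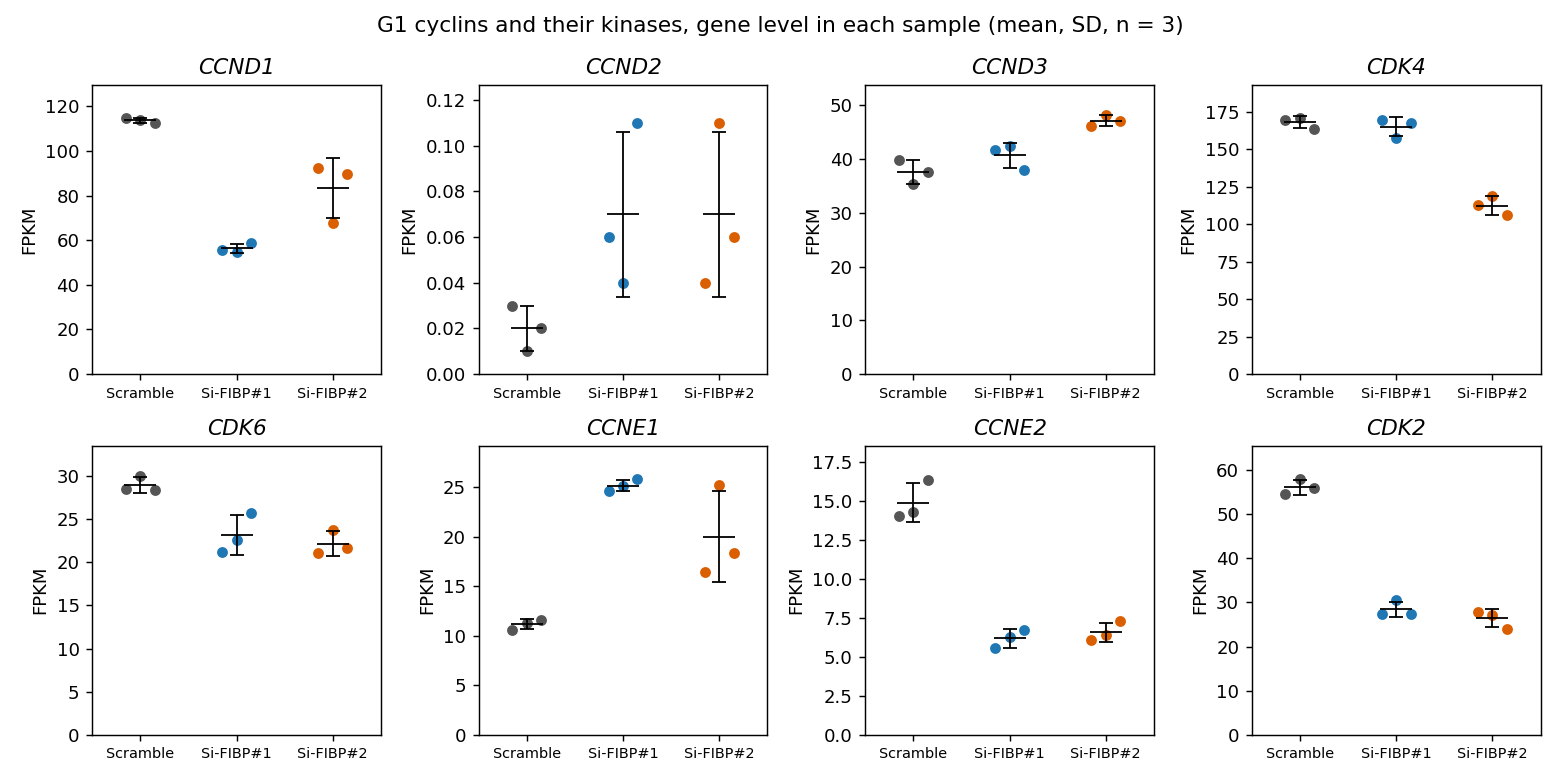
FPKM of the 8 genes (y axis, 1 panel per gene, each starting at 0) in the Scramble, Si-FIBP#1 and Si-FIBP#2 samples (x axis), with points for samples and lines with bars for the mean and SD of 3 samples. CCNE2 and CDK2 drop to about the same level with both siRNAs, CCNE1 rises, CDK4 drops with Si-FIBP#2, and CCND2 stays at or below 0.11 FPKM.

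CCND1 encodes cyclin D1, the D cyclin with the highest level in these cells (ENSG00000110092; in GENCODE 29, GRCh38, on chromosome 11 from 69641087 to 69654474, plus strand). It was at 115, 114 and 113 FPKM in Scramble. With Si-FIBP#1 it was at 55.8, 54.7 and 58.65 FPKM, and with Si-FIBP#2 at 92.4, 67.9 and 89.8 FPKM. The 3 groups did not overlap: all Si-FIBP#1 samples were lowest, all Scramble samples highest, and replicate 2 of Si-FIBP#2 lay well below the other two of its group. On the log2(FPKM + 1) scale CCND1 changed by -0.9999 with Si-FIBP#1 (limma, SE 0.10, adjusted p = 4.2e-05), just short of the 2-fold limit on that scale. Its mean FPKM in Si-FIBP#1, without the added 1, was 49.6% of the Scramble mean, which is past 2-fold. With Si-FIBP#2 the change was -0.46 on the log2 scale (limma, adjusted p = 0.0043), and -0.32 without replicate 2. Si-FIBP#2 exceeded Si-FIBP#1 by 0.54 (adjusted p = 0.0074), and by 0.68 (adjusted p = 6.8e-05) without replicate 2 of Si-FIBP#2. Nearly all of the level came from a single transcript, ENST00000227507, which gave 98.3% of the CCND1 sum in Scramble, 96.8% in Si-FIBP#1 and 97.3% in Si-FIBP#2.

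CCND3, which encodes cyclin D3 (ENSG00000112576, chromosome 6, 41934933 to 42050357, minus strand), moved the other way. It was at 39.8, 35.3 and 37.5 FPKM in Scramble, at 41.6, 42.4 and 38.0 FPKM in Si-FIBP#1, and at 46.2, 48.3 and 47.0 FPKM in Si-FIBP#2. All Si-FIBP#2 samples were above the other 6, while Si-FIBP#1 overlapped Scramble. The rise passed with Si-FIBP#2 (log2 0.32, limma adjusted p = 0.0022, and 0.20, adjusted p = 0.0187, with median ratio scaling). With Si-FIBP#1 the difference was 0.11 (95% interval -0.028 to 0.25, adjusted p = 0.166). The siRNAs differed by 0.21 (adjusted p = 0.0511), a difference that passed with TPM scaling (0.25, adjusted p = 0.0196).
CCND2, which encodes cyclin D2 (ENSG00000118971, chromosome 12, 4273772 to 4305350, plus strand), was at 0.01 to 0.03 FPKM in Scramble and at 0.04 to 0.11 FPKM with either siRNA. This corresponded to an estimated 1 to 14 fragments per sample, and it was below the limit for testing. All 6 depleted samples were above Scramble. Fitted without the limit, the log2 change was 0.069 with each siRNA (limma adjusted p = 0.24 and 0.23). The summed D cyclins thus consisted of CCND1 and CCND3, and CCND1 gave 74.2%, 76.3% and 75.0% of them in Scramble. This share was 57.2%, 56.3% and 60.6% in Si-FIBP#1 and 66.6%, 58.4% and 65.6% in Si-FIBP#2, below Scramble in all 6 depleted samples.

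CDK4, the D cyclin kinase with the highest level of the 8 genes (ENSG00000135446, chromosome 12, 57747727 to 57756013, minus strand), was at 169.8, 171 and 164 FPKM in Scramble and at 169.9, 158 and 168 FPKM in Si-FIBP#1. With Si-FIBP#2 it was at 113, 119 and 106 FPKM, below all 6 other samples. The log2 fold change in Si-FIBP#2 was -0.58 (limma, SE 0.052, adjusted p = 2.4e-05). With Si-FIBP#1 it was -0.028 (95% interval -0.15 to 0.089, adjusted p = 0.688). The difference between the siRNAs was -0.55 (95% interval -0.67 to -0.43, adjusted p = 3.5e-04), and it ranged from -0.59 to -0.51 over the alternatives tried. The main transcript ENST00000257904 followed, at 109, 105 and 104 FPKM in Scramble, 106, 101 and 101 FPKM in Si-FIBP#1 and 71.1, 80.9 and 68.1 FPKM in Si-FIBP#2. MYC, which is known to act on CDK4 and CCND1, was singled out after its values were seen. It was at 80.9, 70.4 and 81.5 FPKM in Scramble, 80.6, 79.6 and 76.3 FPKM in Si-FIBP#1 and 49.4, 48.7 and 46.0 FPKM in Si-FIBP#2. MYC was thus lower with Si-FIBP#2 than in all other samples (log2 -0.68, limma adjusted p = 3.1e-05). Other listed genes were also lowest in the Si-FIBP#2 samples. Among them was CCNC, with means of 69.8 FPKM in Scramble, 72.8 in Si-FIBP#1 and 44.7 in Si-FIBP#2. A relation of MYC to CDK4 was not tested, nor one to CCND1, which was higher with Si-FIBP#2 than with Si-FIBP#1.

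CDK6, the other kinase of the D cyclins (ENSG00000105810, chromosome 7, 92604921 to 92836594, minus strand), was at 28.5, 30.0 and 28.4 FPKM in Scramble. With Si-FIBP#1 it was at 21.2, 22.6 and 25.7 FPKM, and with Si-FIBP#2 at 21.1, 23.8 and 21.6 FPKM. All 6 depleted samples were below Scramble, and the log2 fold changes were -0.31 (limma adjusted p = 0.0084) and -0.37 (adjusted p = 0.0034). The difference between the siRNAs was -0.058 (95% interval -0.23 to 0.12).
The CDK6 sum was split between 2 long transcripts of nearly equal length. ENST00000265734 was at 12.9, 15.2 and 15.2 FPKM in Scramble, 6.08, 6.29 and 9.49 FPKM in Si-FIBP#1 and 9.88, 6.62 and 9.20 FPKM in Si-FIBP#2, so that Scramble was above all depleted samples. ENST00000424848 was at 13.2 to 15.3 FPKM in Scramble, 15.0 to 16.0 FPKM in Si-FIBP#1 and 11.1 to 16.7 FPKM in Si-FIBP#2, and both overlapped Scramble. How many reads the 2 transcripts share is not known from these values, and the difference between them was not tested.

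**Figure D2:**
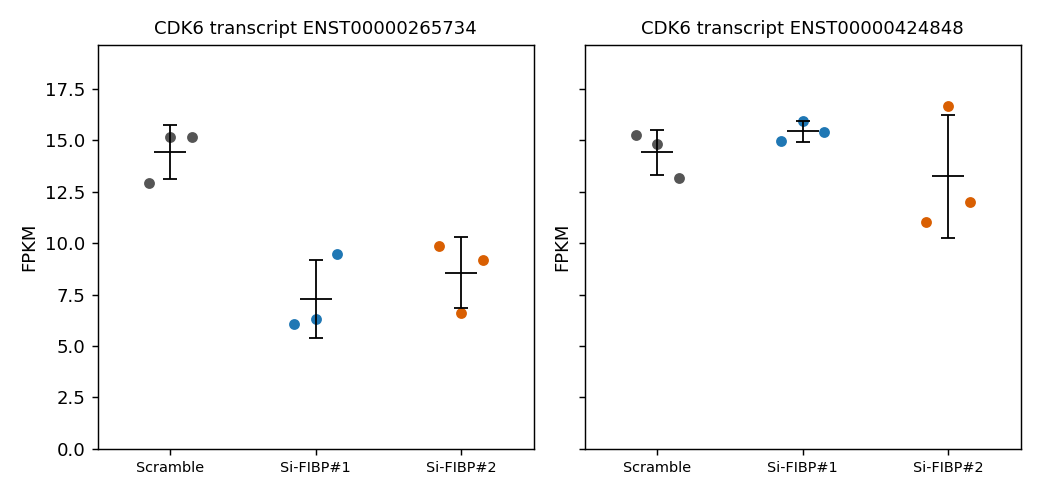
FPKM (y axis, from 0) of the CDK6 transcripts ENST00000265734 (left) and ENST00000424848 (right) in each sample of the 3 groups (x axis), with points for samples and lines with bars for the mean and SD of 3 samples. The left transcript is lower in all 6 depleted samples, the right one overlaps between the groups.

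CCNE1 and CCNE2 encode the E cyclins, and they moved in opposite directions. CCNE1 (ENSG00000105173, chromosome 19, 29811898 to 29824308, plus strand) was at 10.6, 11.3 and 11.6 FPKM in Scramble, at 24.6, 25.1 and 25.8 FPKM in Si-FIBP#1 and at 16.4, 25.2 and 18.4 FPKM in Si-FIBP#2. All 6 depleted samples exceeded Scramble. Replicate 2 of Si-FIBP#2 reached the Si-FIBP#1 level, and the other two of its group lay between. The rise was 1.11 on the log2 scale in Si-FIBP#1 (limma, SE 0.13, adjusted p = 9.9e-05) and 0.77 in Si-FIBP#2 (adjusted p = 9.0e-04; 0.60 without replicate 2). The siRNAs differed by -0.34 (95% interval -0.63 to -0.054, adjusted p = 0.106), and without replicate 2 of Si-FIBP#2 by -0.51 (adjusted p = 0.0019).
CCNE2 (ENSG00000175305, chromosome 8, 94879770 to 94896678, minus strand) was at 14.1, 14.3 and 16.3 FPKM in Scramble, at 5.56, 6.26 and 6.75 FPKM in Si-FIBP#1 and at 6.08, 6.40 and 7.27 FPKM in Si-FIBP#2. The depleted samples overlapped one another and all lay below Scramble, with log2 fold changes of -1.14 (limma adjusted p = 1.4e-05) and -1.07 (adjusted p = 2.4e-05). The difference between the siRNAs was 0.077 (95% interval -0.14 to 0.29). CCNE2 had an estimated 281 to 757 fragments per sample and CCNE1 312 to 841, fewer than the other 5 tested genes.
The makeup of the E cyclins therefore changed more than their sum. CCNE1 gave 43.0%, 44.2% and 41.5% of E cyclin FPKM in Scramble, 81.6%, 80.1% and 79.3% in Si-FIBP#1 and 73.0%, 79.8% and 71.7% in Si-FIBP#2. Their sum was 26.0 ± 1.66 FPKM (SD, n = 3) in Scramble, against 31.4 ± 1.17 in Si-FIBP#1 and 26.6 ± 4.63 in Si-FIBP#2. Among CCNE1 transcripts, ENST00000444983 was the most abundant in every group, at 50.8%, 52.8% and 52.3% of the gene on average.

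CDK2, the kinase of the E cyclins (ENSG00000123374, chromosome 12, 55966769 to 55972784, plus strand), fell to 50.7% and 47.1% of its Scramble mean with Si-FIBP#1 and Si-FIBP#2. It was at 54.4, 57.8 and 55.8 FPKM in Scramble, at 27.4, 30.4 and 27.5 FPKM in Si-FIBP#1 and at 27.9, 27.2 and 24.1 FPKM in Si-FIBP#2. No depleted sample came near the lowest Scramble sample. On the log2 scale this was -0.96 (limma, SE 0.070, adjusted p = 6.0e-06) and -1.06 (adjusted p = 3.8e-06), and the siRNAs differed by -0.10 (95% interval -0.26 to 0.052). Its main transcript ENST00000266970 went from 35.1 to 36.6 FPKM in Scramble to 15.1 to 17.3 FPKM in the 6 depleted samples.

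**Figure D3:**
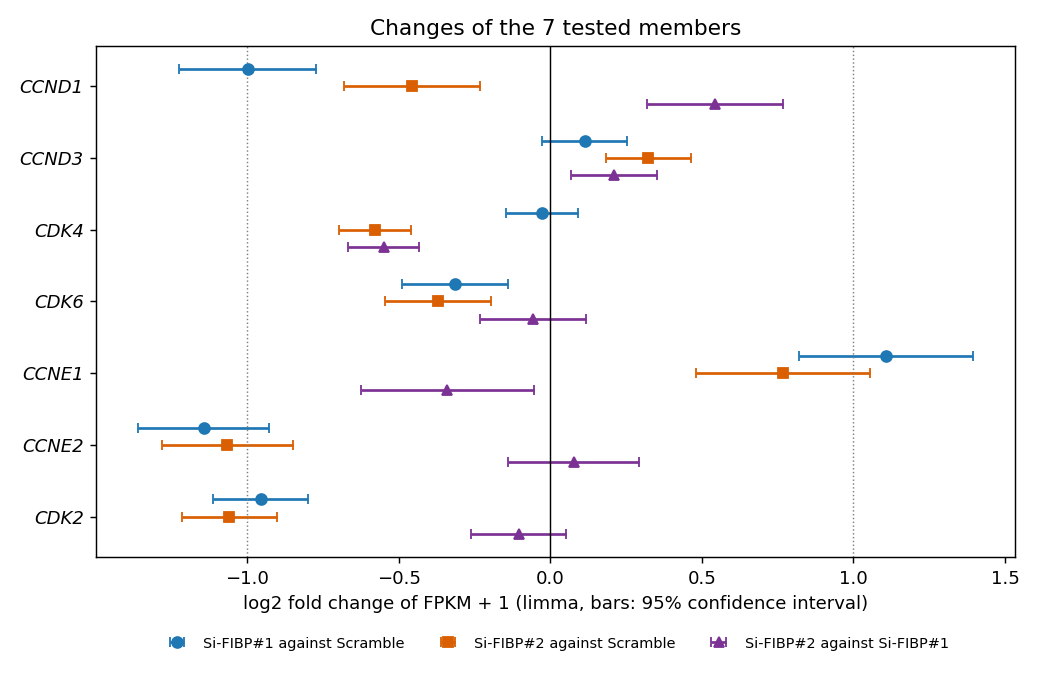
Log2 fold changes of FPKM + 1 (x axis) of the 7 tested genes (y axis) for each siRNA against Scramble and for Si-FIBP#2 against Si-FIBP#1, with 95% confidence intervals from limma. Dotted lines mark a 2-fold change, and the intervals between the siRNAs exclude 0 for CCND1, CCND3, CDK4 and CCNE1, of which CCND1 and CDK4 passed after adjustment.

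Because FPKM are scaled by length, the levels of the 8 genes could be placed in order. In Scramble the order from the highest was CDK4, CCND1, CDK2, CCND3, CDK6, CCNE2, CCNE1 and CCND2, and no neighbours in it overlapped. With Si-FIBP#1 it was CDK4, CCND1, CCND3, CDK2, CCNE1, CDK6, CCNE2 and CCND2, in which CCNE1 and CDK6 overlapped. With Si-FIBP#2 CDK6 stood before CCNE1 and their ranges overlapped, with the rest of the order as for Si-FIBP#1. CDK2 thus moved below CCND3, and CCNE1 above CCNE2, with both siRNAs.
The ratio of cyclin to kinase FPKM changed differently for the 2 families. Summed D cyclins over CDK4 plus CDK6 gave 0.741 to 0.781 in Scramble, 0.501 to 0.539 in Si-FIBP#1 and 0.817 to 1.07 in Si-FIBP#2, on opposite sides of Scramble. Summed E cyclins over CDK2 gave 0.443 to 0.499 in Scramble, 1.03 to 1.19 in Si-FIBP#1 and 0.807 to 1.16 in Si-FIBP#2. These ratios describe RNA and were not tested.

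**Figure D4:**
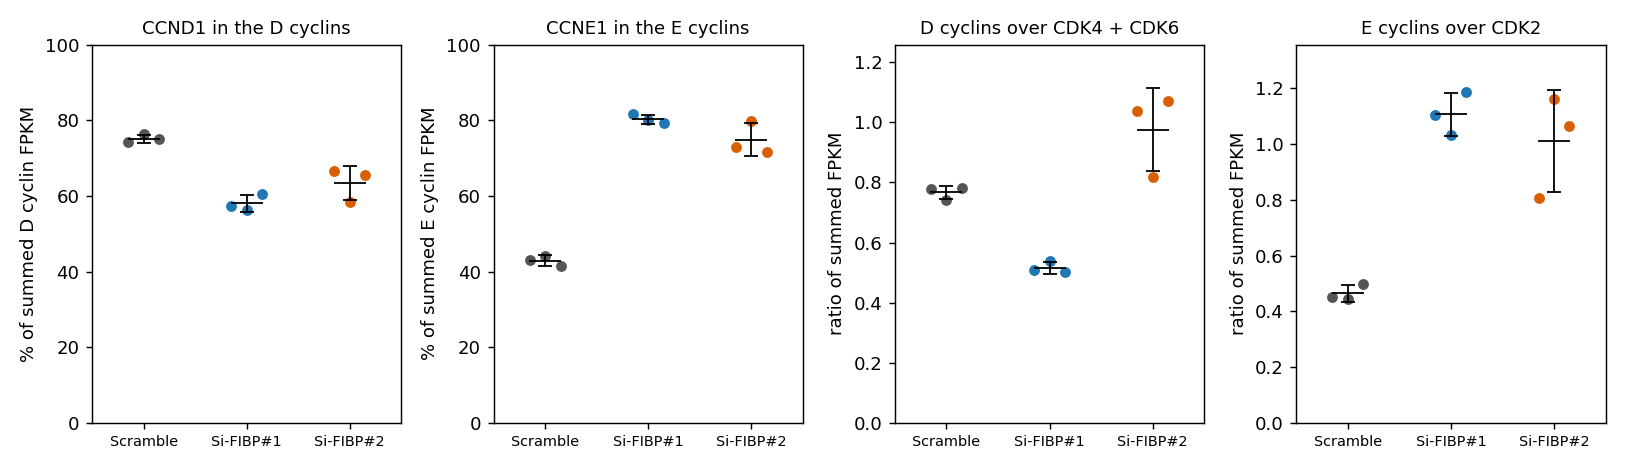
From left to right, the share of CCND1 in summed D cyclin FPKM and of CCNE1 in summed E cyclin FPKM (y axes in percent), and the ratios of D cyclins to CDK4 plus CDK6 and of E cyclins to CDK2 (y axes, ratios of summed FPKM), in each sample of the 3 groups (x axis), with the mean and SD of 3 samples. The D cyclin ratio falls with Si-FIBP#1 and lies above Scramble with Si-FIBP#2, while the E cyclin ratio lies above Scramble with both.

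Of the inhibitors of these kinases, 3 of 7 rose and 3 of 7 fell with each siRNA, where 27.8% of all tested genes rose and 19.9% fell with Si-FIBP#1, and 31.1% and 17.7% in Si-FIBP#2. Their median log2 change was 0.088 and 0.18, close to the 0.073 and 0.11 of all tested genes. Without replicate 3 of Scramble 1 rose with each siRNA, and without replicate 3 of Si-FIBP#2 1 rose with Si-FIBP#2. With median ratio scaling 2 and 1 of 7 rose, and 3 of 7 fell with each siRNA. The genes behind the equal counts differed in part. CDKN2B passed only with Si-FIBP#1 (higher), CDKN2A only with Si-FIBP#2 (lower), and CDKN1A passed in opposite directions. For CDKN2B the siRNAs overlapped, at 13.55 to 14.8 FPKM in Si-FIBP#1 and 11.2 to 14.9 in Si-FIBP#2. Its rise with Si-FIBP#1 (limma adjusted p = 0.025) did not pass with median ratio scaling (limma adjusted p = 0.057). Nor did it without replicate 2 or 3 of Scramble or replicate 1 or 3 of Si-FIBP#1 (limma adjusted p = 0.055 to 0.089). CDKN2C and CDKN2D, INK4 inhibitors of CDK4 and CDK6, fell with both siRNAs. CDKN2C was at 41.1 ± 2.59 FPKM (SD, n = 3) in Scramble, against 14.4 ± 1.15 in Si-FIBP#1 and 19.0 ± 1.21 in Si-FIBP#2 (log2 -1.45, limma adjusted p = 1.1e-06, and -1.07, adjusted p = 6.8e-06). CDKN2D fell by 1.11 and 0.81 on the log2 scale. The CIP/KIP inhibitor CDKN1A fell by 1.06 in Si-FIBP#1 (limma adjusted p = 1.4e-06), whereas with Si-FIBP#2 it was 0.18 higher (adjusted p = 0.035, and 0.056 higher, adjusted p = 0.47, with median ratio scaling). That rise was lost without any 1 replicate of Scramble and without replicate 2 or 3 of Si-FIBP#2 (limma adjusted p = 0.052 to 0.099). Between the siRNAs CDKN1A differed by 1.24 (limma adjusted p = 2.4e-05). The CIP/KIP inhibitor CDKN1B had means of 40.2 FPKM in Scramble, 56.5 in Si-FIBP#1 and 48.1 in Si-FIBP#2. It rose by 0.48 (limma adjusted p = 9.1e-05) and 0.25 (adjusted p = 0.0038). With median ratio scaling the rise with Si-FIBP#2 did not pass (0.13, limma adjusted p = 0.067). CDKN1C, another CIP/KIP inhibitor, rose from 0.667 FPKM to 1.54 FPKM with each, and without replicate 3 of Scramble this no longer passed (limma adjusted p = 0.058 and 0.057). Nor did it pass with Si-FIBP#1 without its replicate 2 (limma adjusted p = 0.064) or with Si-FIBP#2 without its replicate 3 (limma adjusted p = 0.059).
In the list of pocket proteins and E2F/DP factors, 9 of 13 fell and 1 of 13 rose with each siRNA, against 19.9% and 17.7% of all tested genes that fell and 27.8% and 31.1% that rose, with a median log2 change of -0.53 and -0.40. The activator E2F1 was at 23.9, 23.0 and 23.5 FPKM in Scramble, 6.33, 7.57 and 6.73 FPKM in Si-FIBP#1 and 11.4, 8.42 and 10.9 FPKM in Si-FIBP#2, with no overlap of the groups. E2F2 fell by 1.64 and 1.56, to 21.4% and 23.5% of its Scramble mean of 6.38 FPKM. E2F8, a repressor of the family, fell by 1.48 and 1.37. E2F7, another repressor, fell by 1.11 in Si-FIBP#1 and by 0.40 in Si-FIBP#2. E2F5, which acts mainly as a repressor with pocket proteins, was the gene of the list that rose, by 0.72 and 0.84.
All 12 listed E2F targets of S phase entry fell with each siRNA (19.9% and 17.7% of all tested genes did, while 27.8% and 31.1% rose), 11 of them over 2-fold (3.11% and 2.13% of all tested genes), and 0 rose (limma, also 0 at an unadjusted p below 0.05 and with each scaling tried). The median log2 change was -1.56 in Si-FIBP#1 and -1.38 in Si-FIBP#2. TYMS, thymidylate synthase, went from 213 ± 5.28 FPKM (SD, n = 3) to 45.7 ± 2.14 and 73.4 ± 8.83. RRM2, a subunit of ribonucleotide reductase, fell by 2.12 and 1.83, MYBL2 by 1.90 and 1.52 and TK1, thymidine kinase, by 1.84 and 1.52. The licensing and replication genes CDC6, CDT1, ORC1, MCM2 and PCNA fell by 1.18 to 1.63. POLA1, the catalytic subunit of DNA polymerase alpha, fell by 0.60 and 0.62. CCNA2, cyclin A2 and the next partner of CDK2, was at 66.7 ± 0.945 FPKM in Scramble, against 22.0 ± 2.37 in Si-FIBP#1 and 31.2 ± 2.98 in Si-FIBP#2. CCNE1, itself known as an E2F target, thus rose where all listed targets and the other E cyclin, CCNE2, fell. The list was chosen with earlier results of these data known, so its counts are a description and not independent support. Between the siRNAs 5 of 12 passed as higher with Si-FIBP#2, against 9.58% of all tested genes. Without replicate 2 of Si-FIBP#2 9 of 12 did, and the share of all tested genes in that fit is not given here.

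**Figure D5:**
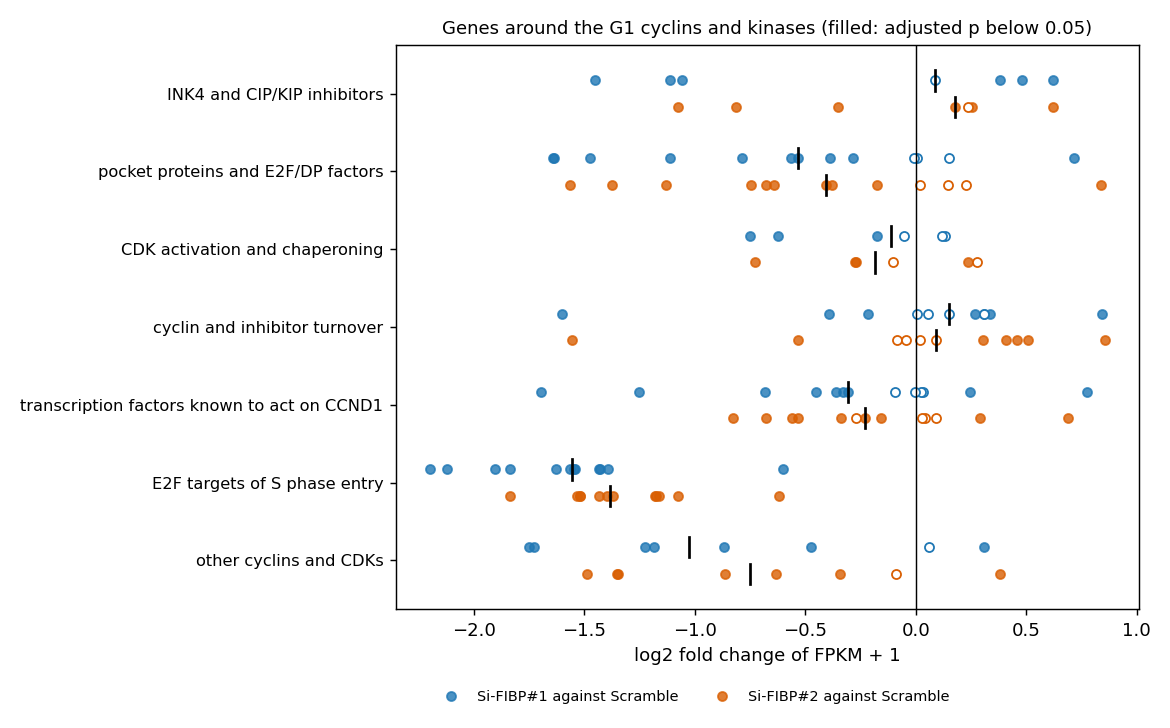
Log2 fold changes of FPKM + 1 (x axis) of the genes in 7 lists (y axis) for Si-FIBP#1 and Si-FIBP#2 against Scramble, with 1 point per gene, filled where the adjusted p was below 0.05, and a black bar at the median of each list. All 12 E2F targets lie left of 0 with both siRNAs, while the 7 inhibitors lie on both sides.

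Of 8 other cyclins and CDKs, 6 fell and 1 rose with each siRNA, where 19.9% and 17.7% of all tested genes fell and 27.8% and 31.1% rose. CDK3 was among the 6 only with Si-FIBP#1 and CCNC only with Si-FIBP#2. The fall of CDK3 (limma adjusted p = 0.029) did not pass without replicate 1 or 2 of Scramble (limma adjusted p = 0.10 and 0.055). Nor did it without replicate 1 or 3 of Si-FIBP#1 (limma adjusted p = 0.067 and 0.099), and 5 fell with Si-FIBP#1 in each of these cases. The mitotic genes CCNB1 and CDK1 fell by 1.73 and 1.75 in Si-FIBP#1 and by 1.35 each with Si-FIBP#2, and CCNB2 by 1.18 and 0.86. CCNA1 was low, at 2.97 FPKM in Scramble, 0.71 in Si-FIBP#1 and 0.42 in Si-FIBP#2. It fell by 1.22 and 1.49 on the FPKM + 1 scale, while 23.9% and 14.0% of its Scramble mean remained. CDK5, best known from neurons, rose by 0.31 and 0.38. Of the genes for CDK activation and chaperoning, 3 of 6 fell with each siRNA, CDK7 only with Si-FIBP#1 and HSP90AB1 only with Si-FIBP#2. With Si-FIBP#1 0 rose (limma, also 0 at an unadjusted p below 0.05) and with Si-FIBP#2 1 rose. The shares of all tested genes were the same as above (19.9% and 17.7% lower, 27.8% and 31.1% higher). With median ratio scaling 4 of 6 fell and 0 rose with each. With non-mitochondrial scaling 2 of 6 fell with Si-FIBP#1. The same number fell without replicate 1 or 3 of Scramble, replicate 1 or 2 of Si-FIBP#1 or replicate 3 of Si-FIBP#2. With Si-FIBP#2, 2 of 6 fell without replicate 2 of Scramble or replicate 3 of Si-FIBP#2. CDC37, the cochaperone that brings kinases such as CDK4 to HSP90, fell by 0.62 and 0.73, and MNAT1, of the CDK-activating kinase, was 0.12 and 0.28 higher without passing (limma adjusted p = 0.43 and 0.081). In the list for cyclin and inhibitor turnover, 4 of 11 rose and 3 of 11 fell with Si-FIBP#1, and 5 and 2 in Si-FIBP#2 (CRYAB was too low to test), near the shares of all tested genes. Without replicate 3 of Scramble, or without replicate 2 of Si-FIBP#1, 2 rose with Si-FIBP#1. With median ratio scaling 1 and 3 of 11 rose, and 3 fell with each siRNA. CKS1B, a partner of SKP2 and of CDKs, went from 252 ± 7.18 FPKM (SD, n = 3) to 82.6 ± 4.89 and 85.2 ± 2.14, and FBXO4, described as a ubiquitin ligase subunit for cyclin D1, from 8.05 ± 0.185 to 15.3 ± 0.791 and 15.5 ± 2.06. Of 13 transcription factors known to act on CCND1, 7 fell and 2 rose with each siRNA (7 and 8 fell and 1 rose with median ratio scaling). Of all tested genes, 19.9% and 17.7% fell and 27.8% and 31.1% rose. The genes behind the equal counts differed in part. RELA (higher) and ETS2 (lower) passed only with Si-FIBP#1, and neither did without replicate 2 or 3 of Scramble (limma adjusted p = 0.054 to 0.11). MYC and CTNNB1 passed as lower only with Si-FIBP#2. JUN passed in opposite directions, with means of 24.4 FPKM in Scramble, 19.5 in Si-FIBP#1 and 30.0 in Si-FIBP#2. Its rise with Si-FIBP#2 did not pass with median ratio scaling (0.17, limma adjusted p = 0.074). The immediate early genes EGR1 and FOS fell further with Si-FIBP#1 (by 1.70 and 1.25) than with Si-FIBP#2 (by 0.83 and 0.56), and the difference between the siRNAs passed for both (limma adjusted p = 0.031 and 0.0073). Without replicate 2 of Si-FIBP#2, which had 7.55 FPKM of EGR1 against 3.22 and 3.89 in the other two, the EGR1 difference was 0.56 instead of 0.87 (limma adjusted p = 0.02), and it did not pass without any 1 replicate of Si-FIBP#1 or without replicate 3 of Si-FIBP#2 (limma adjusted p = 0.054 to 0.10). CCND1 differed in the same direction, and a relation between them was not tested. STAT3 rose by 0.78 and 0.69. SP1, whose letters were marked in the CCNE1 window, had means of 23.0 FPKM in Scramble, 18.2 in Si-FIBP#1 and 19.5 in Si-FIBP#2. All 6 depleted samples were below Scramble, whereas CCNE1 rose. With Si-FIBP#2 the fall of SP1 (log2 -0.23, limma adjusted p = 0.045) did not pass without any 1 replicate of Scramble (limma adjusted p = 0.075 to 0.12). A relation of SP1 to CCNE1 was not tested.

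CDK2 and CCNE2 had the largest moderated F statistics over the 3 groups, and the genes with the most similar pattern over the 9 samples were looked up for both. For CDK2 these were PHGDH, PMAIP1, GINS3, NCAPG2 and TRIP13, with Pearson correlations of 0.990 to 0.993. For CCNE2 they were UBE2T, CGAS, MPHOSPH6, HSPD1 and CBX3, at 0.992 to 0.996. At a lower threshold, 367 of 14984 genes exceeded 0.95 with CDK2 and 466 with CCNE2. The 9 points share their libraries and fall apart into Scramble and depleted samples, and the correlations are given as a description.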

How the data were processed

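RNA-seq tables of 9 H1299 samples, 3 per group, were analysed. Per the labels and the submitters' processing notes, reads were processed with tools that include HISAT2 and StringTie, and their versions and the genome build are not given in the sources used here. The authors deposited 1 table per sample with a value for each of 229487 annotated and 14956 assembled transcripts. The unit of these deposited values, FPKM, was inferred from the values. The tables also hold pathway annotation, which was not used. FPKM carry no counts, so fragments were estimated from the step between low values of 8028 single-transcript genes of 800 to 2000 nt, and precision is given by the spread between samples.
FPKM were summed per gene. The genes reaching 1 FPKM in 3 or more samples were tested on log2(FPKM + 1) with limma 3.58.1 (R 4.3.3; 1 fit over all 9 samples, empirical Bayes with a mean-variance trend, Benjamini-Hochberg adjustment over 14985 genes). The limits of FDR 0.05 and 2-fold follow the methods of the study, which name no test for FPKM. The steps were tested on simulated data. Python 3.11.15 (pandas 2.3.3) and matplotlib 3.10.9 were used for tables and figures.
Named were the 8 genes, FIBP, the genes of each list past 2-fold with either siRNA, the highest and lowest of each list, and the 5 genes most like CDK2 and CCNE2. MYC, CCNC, CDKN1B, CDKN2A and CDKN2B were named in addition, after their values were seen. So were SP1, JUN, ETS2, RELA, CTNNB1, CDK3, CDK7 and HSP90AB1. The G1 genes and lists were chosen with earlier results of these data known. Alternatives were TPM, median ratio or non-mitochondrial scaling (the last added after seeing the data), a pseudocount of 0.1, no filter or one of 5 FPKM, annotated transcripts only, only the groups compared, no trend, a replicate block and each sample left out in turn. Gene positions are from GENCODE 29 (GRCh38) and promoters from RefSeq (GRCh38.p14), which may differ from the build of the authors.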

Additional observations from a re-analysis of the deposited data

Results flagged for a closer look

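By the test of the difference itself, 2 of the 7 tested G1 genes responded differently to the siRNAs, against 15.4% of all tested genes. The samples of the siRNAs did not overlap for 32.9% of all tested genes. CCND1 was 0.54 higher on the log2 scale with Si-FIBP#2 than with Si-FIBP#1 (limma adjusted p = 0.0074), with all 3 Si-FIBP#2 samples above all 3 Si-FIBP#1 samples. CDK4 differed by -0.55 (limma adjusted p = 3.5e-04), with all 3 Si-FIBP#2 samples below the others. Both differences kept their direction and stayed past the threshold in all alternatives tried, from 0.46 to 0.68 for CCND1 and from -0.59 to -0.51 for CDK4. FIBP itself was 0.13 higher with Si-FIBP#2 (95% interval -0.28 to 0.54, adjusted p = 0.686).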

How the results depend on the processing

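Of 600 log2 differences of the 7 tested G1 genes and FIBP under an alternative, 591 kept their direction and side of the threshold, 5 came past the threshold and 1 lost it. In 3 others, which had not passed and lay near 0 (CDK4 with Si-FIBP#1, CDK6 and FIBP between the siRNAs), leaving out 1 sample changed the sign. The 1 lost was CCND3 with both siRNAs pooled (0.12, limma adjusted p = 0.0787, with median ratio scaling). The cause was not tested. A pseudocount of 0.1 moved the counts of all tested genes past 2-fold from 848 to 1498 (Si-FIBP#1), 757 to 1411 (Si-FIBP#2), 84 to 172 (between the siRNAs) and 721 to 1418 (both pooled), since it understates low genes less. Median ratio scaling changed the split of genes passing (higher and lower) from 4170 and 2976 to 3366 and 3590 with Si-FIBP#1, from 4653 and 2656 to 3340 and 3662 with Si-FIBP#2, and from 4892 and 3046 to 3748 and 3954 with both pooled. Between the siRNAs the split was 1435 and 869, 1074 and 1188 with median ratio scaling and 1923 and 648 with TPM. Past 2-fold it changed with median ratio scaling from 438 and 319 to 329 and 449 with Si-FIBP#2 and from 354 and 367 to 269 and 467 with both pooled, and with TPM from 40 and 44 to 64 and 39 between the siRNAs.
Leaving out 1 sample, 6050 to 7596 genes passed with Si-FIBP#1, 6216 to 7206 with Si-FIBP#2, 6691 to 8026 with both pooled and 1274 to 2822 between the siRNAs. The last count, 2304 with all samples, was 1358 and 1345 without replicate 1 or 2 of Si-FIBP#1 and 1473 and 1274 without replicate 1 or 3 of Si-FIBP#2. Past 2-fold these counts were 849 to 891, 741 to 842, 691 to 767 and 75 to 132, the highest without replicate 2 of Si-FIBP#2. Of the 7 G1 genes, 5 passed with Si-FIBP#1, 7 with Si-FIBP#2 and 7 with both pooled in every case, and 2 to 3 between the siRNAs (CCND3 without Scramble replicate 1, CCNE1 without replicate 2 of Si-FIBP#2). Past 2-fold these were 2 to 3 for Si-FIBP#1, and 1 to 2 both for Si-FIBP#2 and for the pooled siRNAs. CCND1 with Si-FIBP#1 and CDK2 with either siRNA or both pooled lie near that limit.
Pairing of the samples by replicate number was weak at most: deviations of same-numbered samples correlated at -0.057 to 0.10 across genes, those of others at -0.14 to 0.049. The highest of these correlations were between same-numbered samples. With the replicate number as a block, 7081 and 7287 genes passed with the siRNAs, 2177 between them and 7940 with both pooled, and no call of a G1 gene changed. Fitting only the groups compared was not run for both siRNAs pooled, which uses all groups.
FPKM give no counting error, and CCND2 rests on an estimated 1 to 14 fragments per sample. The counts of the gene lists were also taken with the other scalings and with each sample left out, a choice made after seeing the data, and changes over 1.5 times in the inhibitor and turnover lists are given there. The number that rose also changed for CDK activation. It was 1 with Si-FIBP#1 without its replicate 1. With Si-FIBP#2 it was 0 without replicate 1 of Scramble or replicate 3 of Si-FIBP#2, and 2 without replicate 1 of Si-FIBP#1. In the pocket and E2F list, 2 rose with Si-FIBP#2 without replicate 1 of Scramble. Of the transcription factors, 1 rose with Si-FIBP#1 without replicate 2 or 3 of Scramble or replicate 2 of Si-FIBP#1, and 3 with Si-FIBP#2 without its replicate 1.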
